A study of Mus musculus with 4 samples.

Results

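The genes described here are 8 genes of heme breakdown and iron handling: Hmox1, Blvra, Blvrb, Slc40a1, Slc11a1, Hp, Fth1 and Tfrc. They were measured in whole tumour-bearing eyes of C57BL/6 mice that lacked or kept their spleen. They were chosen because the spleen is the main site of heme recycling and because Blvrb had a clearly higher signal in splenectomized mice on these same arrays. The comparison of the groups is therefore a description for these genes and carries no test. All probe sets whose annotation gives a single symbol among the 8 were taken, 15 of 45101 on the array, of which 3 are the manufacturer's control probe sets for Tfrc.

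The tumour was E.G7-OVA, a T lymphoma line of mouse origin that carries an ovalbumin gene as model antigen and, here, luciferase. In both groups 10000 of these cells were placed in the fluid-filled chamber behind the cornea, and eyes were removed 15 days later. There were 2 arrays from splenectomized mice and 2 from intact mice, with 1 array per tumour-bearing eye. The animals were males and females over 7 weeks old, and the labels do not give the sex behind an array. Intact mice had no operation, so the loss of the spleen and the surgery itself cannot be told apart. In RNA of a whole eye, a larger number of cells of a type and more RNA per cell cannot be told apart either.

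Heme released from hemoglobin is opened by heme oxygenase (Hmox1 encodes the inducible form) into biliverdin, carbon monoxide and iron. Biliverdin reductases are encoded by Blvra and Blvrb, and the product of Blvra is the main enzyme that reduces biliverdin to bilirubin in adult mammals. Macrophages carry out most of this recycling, keep the freed iron in ferritin (Fth1 encodes its heavy chain) or export it through ferroportin (Slc40a1). Haptoglobin (Hp) binds free hemoglobin in plasma, Slc11a1 moves metal ions across the phagosome membrane, and the transferrin receptor (Tfrc) brings transferrin-bound iron into dividing and erythroid cells.

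The values are MAS5 signals on a linear scale, scaled by the authors to the same level on each array, with a Present or Absent detection call for each probe set. Between 53.2% and 58.6% of probe sets were Present on an array. The tissue labels were borne out by markers of lens, photoreceptors and pigment epithelium and by T cell genes such as Cd3d. Of 8 T cell genes listed 5 were detected, and Cd4 was Absent on all 4 arrays. The proportions of eye and other signals differed between arrays. The summed signal of 7 eye tissue markers was 24216 and 19402 on the splenectomized arrays and 8092 and 24058 on the intact arrays. Intact replicate 1 thus had the lowest eye signal, and it also had the highest summed signal of 11 cell division markers (20531, against 11388 to 13793 on the other arrays). Intact replicate 2 stood apart in blood: 4 probe sets that are each shared by several adult globin genes gave 918 to 5526 there. On the splenectomized arrays they gave 157 to 2772, and on intact replicate 1 136 to 1771. Mean log2 globin signal over all arrays was thus not higher in splenectomized mice for any of the 4 probe sets. That result rested on intact replicate 2. Against intact replicate 1 alone, the splenectomized mean log2 signal was higher for all 4. The beta globin probe set gave 1818.3 and 1095.5 on the splenectomized arrays, against 1105.5 and 3853.5 on the intact arrays. A direction of blood content is therefore not read from them. Dim probe sets with a single globin symbol differed from these shared ones. Hbb-b2 was higher without overlap on its detected probe set, at 55.4 and 41.2 against 31.8 and 35.8. Hba-a2 was higher too, at 18.7 and 18.6 against 2.2 and 14.1, but Present on 1 array, and Hba-a1 was Absent on all arrays.

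All 8 genes were detected, and 14 of their 15 probe sets were Present on all 4 arrays. Where a gene has several probe sets, the brightest on average stands for it unless another is named. In this form, Blvrb, Slc11a1 and Hmox1 were more than 2-fold higher in splenectomized than in intact mice, where 3.1% of the 13148 detected genes had a mean at least that much higher. Slc40a1 and a probe set of Tfrc were higher by smaller amounts. Blvra, Fth1 and Hp had overlapping groups. All 8 had higher means in splenectomized mice, as did 55.1% of detected genes, and Fth1 turned lower when arrays were scaled to a common median. Tfrc enters this count and the next by its brightest probe set, while 2 of its others were lower without overlap. The groups did not overlap, with the splenectomized arrays higher, for 5 of the 8 genes, where the share over all detected genes was 21.7%. Because the genes were chosen on this comparison, nothing is read from that difference. The median log2 fold change was 0.66 over the 8 genes, and 0.05 over all detected genes. Without intact replicate 1 the median was 1.11 and all 8 genes had higher means, while without intact replicate 2 it was 0.45 and 5 of 8 had. Each of these comparisons rests on a single intact array.

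**Figure D1:**
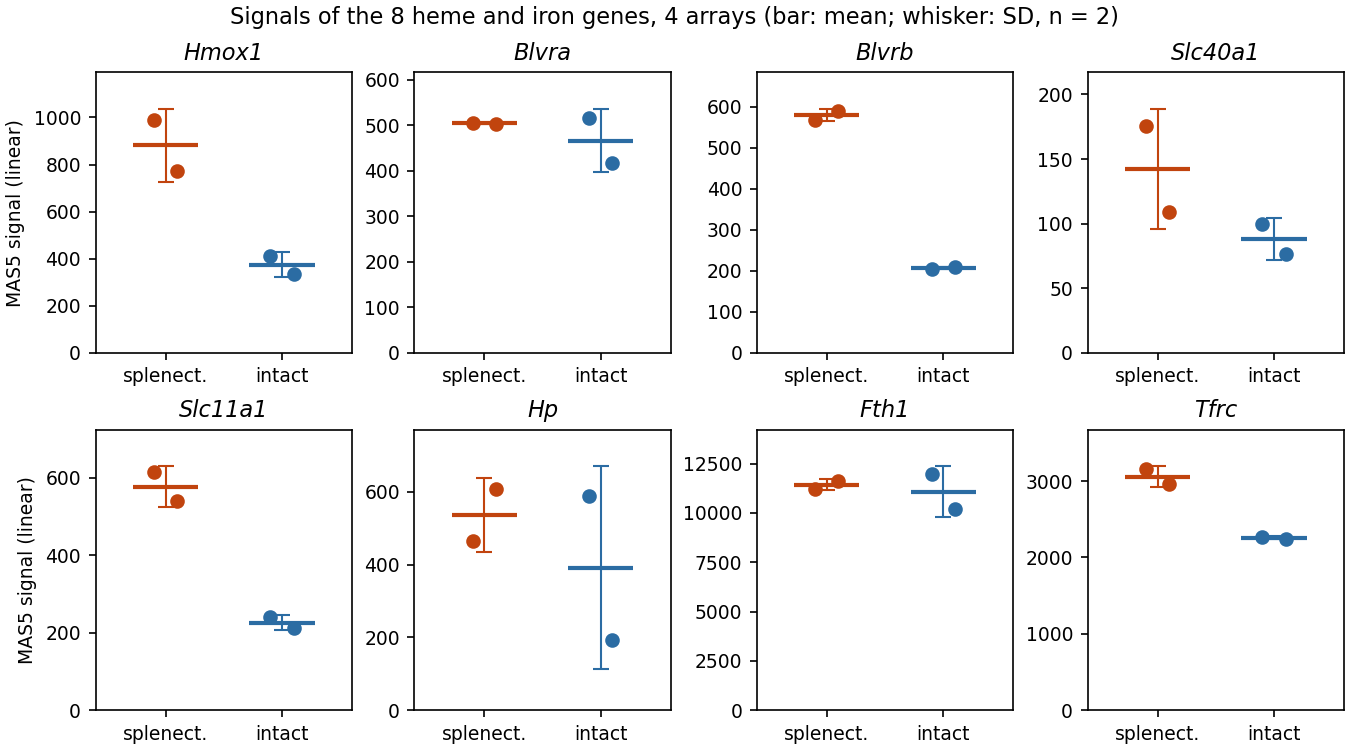
MAS5 signal (linear axis from 0, each gene on its own scale) of the 8 genes on each array. Points are arrays, bars the mean and whiskers the SD of 2 arrays, splenectomized left and intact right. Blvrb, Slc11a1 and Hmox1 have widely separated groups, while Blvra, Fth1 and Hp have overlapping groups.

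Hmox1, the enzyme that opens the heme ring, had signals of 991.1 and 771.9 on the splenectomized arrays, against 413.5 and 336.9 on the intact arrays. Both splenectomized arrays lay above both intact arrays, and the lower of them was 1.87 times the higher intact one. The means were 881.5 ± 155 and 375 ± 54.2 (SD, n = 2 each), a log2 fold change of 1.23 or 2.34-fold. Leaving out any single array kept the log2 fold change between 1.05 and 1.41.

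Blvrb encodes biliverdin reductase B, which also acts as a flavin reductase and is abundant in red cells. Its signals were 568.3 and 590.0 on the splenectomized arrays, against 204.4 and 208.7 on the intact arrays. The groups were far apart, and arrays of the same group differed by no more than 1.04-fold. The means were 579 ± 15.3 in splenectomized and 207 ± 3.04 in intact mice (SD, n = 2 each), a 2.80-fold difference (log2 1.49). Only 0.985% of the 26285 detected probe sets had a larger log2 fold change, and leaving out any single array gave 1.46 to 1.51.

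Blvra encodes biliverdin reductase A, the main enzyme that makes bilirubin in adult mammals. It did not share the pattern of Blvrb, with signals of 504.5 and 503.3 in splenectomized and 515.6 and 416.9 in intact mice. Both splenectomized values lay between the intact ones. The means were 504 ± 0.849 and 466 ± 69.8 (SD, n = 2 each), and the log2 fold change of 0.12 was -0.03 without intact replicate 2. On the log2 scale with each gene centred on its own mean, Blvrb minus Blvra was 0.65 and 0.71 on the splenectomized arrays and -0.85 and -0.52 on the intact arrays. The difference of 1.37 between the groups is a relation of 2 genes within arrays, so scaling of the arrays does not enter it.

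Promoter windows from RefSeq were available for 5 of the 8 genes and are shown for Blvrb and Slc11a1, which had like profiles, and for Blvra, which did not follow them. Each is 300 bases long, from 250 before the annotated start to 50 after it, on assembly GRCm38.p6, printed 5′ to 3′ along the plus strand. Capitals mark a match, on either strand, to any of 4 motifs.
Blvrb, chr7:27447728-27448027: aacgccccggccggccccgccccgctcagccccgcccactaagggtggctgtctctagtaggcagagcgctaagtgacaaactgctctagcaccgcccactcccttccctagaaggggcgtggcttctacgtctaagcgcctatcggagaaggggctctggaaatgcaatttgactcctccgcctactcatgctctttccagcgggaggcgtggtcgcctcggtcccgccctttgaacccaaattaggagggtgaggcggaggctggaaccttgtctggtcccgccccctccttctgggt
Slc11a1, chr1:74374953-74375252: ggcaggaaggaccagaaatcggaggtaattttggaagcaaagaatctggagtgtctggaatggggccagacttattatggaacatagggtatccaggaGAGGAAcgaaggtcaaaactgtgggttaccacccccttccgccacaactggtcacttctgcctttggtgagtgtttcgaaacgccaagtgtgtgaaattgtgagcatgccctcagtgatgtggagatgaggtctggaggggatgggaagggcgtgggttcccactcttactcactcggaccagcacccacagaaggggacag
Blvra, chr2:127070407-127070706: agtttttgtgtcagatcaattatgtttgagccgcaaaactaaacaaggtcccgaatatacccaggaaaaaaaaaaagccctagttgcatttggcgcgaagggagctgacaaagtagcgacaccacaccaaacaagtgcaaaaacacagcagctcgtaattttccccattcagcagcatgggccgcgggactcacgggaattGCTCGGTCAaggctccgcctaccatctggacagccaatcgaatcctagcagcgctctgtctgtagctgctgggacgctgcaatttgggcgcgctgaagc

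The 4 motifs were the antioxidant response element core TGACNNNGC, AP-1 as TGANTCA, the PU.1 core GAGGAA and the gamma activated sequence TTCNNNGAA. They occur in 12.4%, 7.81%, 28.3% and 8.30% of all 32851 promoter windows of that length. The Blvra window held an antioxidant response element core on the minus strand. Its leftmost base, as printed along the plus strand, lay 49 bases before the start site. The Slc11a1 window held a PU.1 core, the motif of a transcription factor of myeloid cells, starting 152 bases before the start site. Neither annotated start of Blvrb, nor those of Fth1 and Tfrc, held a match to any of the 4, and no overlap of motifs occurred. A match is a description of letters in the window, and the windows of Blvrb and Slc11a1 shared none.

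Slc11a1 (also called Nramp1) encodes a proton-coupled metal transporter of phagosomes in macrophages and neutrophils. C57BL/6 mice are known to carry a missense allele that impairs the protein, which an expression array does not show. Its signals were 614.8 and 539.5 in splenectomized mice, against 239.9 and 212.3 in intact mice. The lower splenectomized array was 2.25 times the higher intact array. The means were 577 ± 53.2 and 226 ± 19.5 (SD, n = 2 each), a 2.55-fold difference (log2 1.35, and 1.26 to 1.45 without any single array). Among pairs of these 8 genes, centred profiles of Hmox1 and Slc11a1 lay 0.192 apart and those of Blvrb and Slc11a1 0.263 apart on the log2 scale over 4 arrays. The closest pair was Blvra and Fth1, at 0.0953, which had nearly flat profiles.

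Slc40a1 encodes ferroportin, the only known exporter of iron from mammalian cells. Its brighter probe set, 1417061_at, gave 175.2 and 109.4 in splenectomized mice, against 99.9 and 76.7 in intact mice. The groups did not overlap, but splenectomized replicate 2 was only 1.10 times intact replicate 1. The means were 142 ± 46.5 and 88.3 ± 16.4 (SD, n = 2 each), a difference of 1.58-fold, and the log2 fold change of 0.66 was 0.32 without splenectomized replicate 1 and 1.0 without splenectomized replicate 2. The dimmer probe set, 1448566_at, gave 27.2 and 29.2 against 23.2 and 16.5, a log2 fold change of 0.53, and 0.28 without intact replicate 2. Both probe sets thus had higher splenectomized signals with a small margin.

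Fth1, the ferritin heavy chain that oxidizes and stores iron, had the brightest probe sets of the 8 genes. Its probe set 1448771_a_at gave 11221.2 and 11629.1 in splenectomized and 11996.1 and 10175.5 in intact mice, and 1427021_s_at gave 7985.6 and 8421.1 against 8089.6 and 7095.3. The groups overlapped on both. Their log2 fold changes were 0.05 and 0.11, and that of 1448771_a_at was -0.04 when the arrays were scaled to a common median. Fth1 has many processed pseudogenes, and the suffixes of both probe sets mark probes shared between transcripts. Whether their signals include sequences of other genes was not tested.

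Hp, which encodes haptoglobin, had signals of 465.0 and 608.7 in splenectomized mice, against 588.9 and 193.7 in intact mice. The groups overlapped, and the intact pair alone differed 3.04-fold. The means were 537 ± 102 and 391 ± 279 (SD, n = 2 each). The log2 fold change of 0.66 rested on intact replicate 2, since it was -0.15 without that array and 1.46 without intact replicate 1. Neutrophils make Hp, and 7 of 12 neutrophil markers were detected, Ngp only through Present calls on the splenectomized arrays. All 7 had higher means in splenectomized mice. Their summed signal was 10160 and 10000 on the splenectomized arrays, against 7070 on intact replicate 1 and 3860 on intact replicate 2. The array lowest in Hp was also the lowest in neutrophil signal, but intact replicate 1 was above splenectomized replicate 1 in Hp and below it in neutrophil signal. Without intact replicate 2, 6 of the 7 markers had higher means, with a median log2 fold change of 0.26. Relative to the mean log2 signal of these markers, centred Hp was -0.15 and 0.14 in splenectomized and 0.55 and -0.54 in intact mice. Elane and Mpo, granule genes of immature neutrophils, were Absent on all arrays. Of 6 hepatocyte genes, Alb, Apoa1 and Fgb were Absent on all 4 arrays and Apob was Present on 1. Ttr, which pigment epithelium also makes, was Present on all, at 4915.5 and 4531.1 in splenectomized and 1892.9 and 6786.0 in intact mice. Of 8 adipocyte markers 3 were detected, and their median log2 fold change was 0.09. Their summed signals were 450.0 and 435 against 333 and 296. Fabp4 had 242.3 and 222.3 against 94.1 and 121.5, Adipoq was lower at 7.8 and 6.5 against 13.1 and 13.1, and Pnpla2 overlapped. The part of these cells in the Hp signal was not tested.

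Tfrc gave different answers on different probe sets. The brightest, 1452661_at, had signals of 3155.6 and 2957.9 in splenectomized mice, against 2270.2 and 2242.4 in intact mice, a 1.35-fold higher mean (3057 ± 140 and 2256 ± 19.7, SD, n = 2 each). The next, 1422966_a_at, had 146.6 and 179.4 against 271.0 and 205.9, a log2 fold change of -0.54. These differences go in opposite directions, each without overlap. The control probe set for the 3′ end of the transcript gave 97.3 and 136.0 against 174.3 and 144.9, log2 -0.47, on the side of 1422966_a_at. The remaining 3 overlapped between groups at signals under 30, and 1422967_a_at was Absent on splenectomized replicate 1. Of 6 probe sets, 1 was thus higher without overlap, 2 lower without overlap and 3 overlapping. Leaving out any single array kept 1452661_at at 0.39 to 0.48 and 1422966_a_at at -0.74 to -0.34. No direction is therefore given for Tfrc as a gene.

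**Figure D2:**
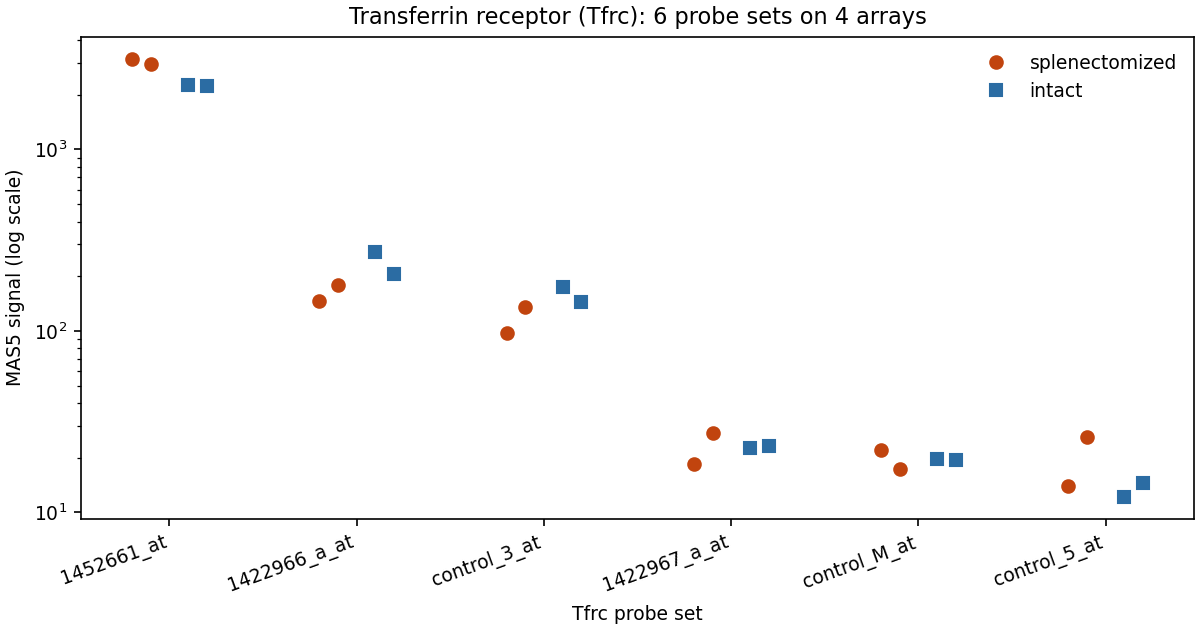
MAS5 signal on a log axis of the 6 probe sets annotated to Tfrc, from the brightest to the dimmest. Circles are splenectomized and squares intact arrays, and the names control_3, control_M and control_5 stand for control probe sets of the 3′ end, middle and 5′ end. The brightest probe set is higher in splenectomized mice, at 3155.6 and 2957.9, and the 2 next brightest are lower.

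Dividing cells take up iron through the transferrin receptor, and all 11 detected cell division markers of 12 had lower means in splenectomized mice, 9 of them without overlap, where 19.7% of detected genes were lower without overlap. Their summed signal was 11388 and 13359 on the splenectomized arrays and 20531 and 13793 on the intact arrays. Probe set 1452661_at went the other way, at 0.62 and 0.35 relative to these markers in splenectomized and -0.73 and -0.24 in intact mice (centred log2). Detected T cell markers that the lymphoma can express had lower means too, 5 of 5, with sums of 8307 and 9581 against 11956 and 8407, and 3 of 5 were lower without intact replicate 1. The part of dividing or lymphoma cells in the Tfrc signals was not tested.

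Macrophages are the main heme-recycling cells, and their markers were higher in the same arrays as Blvrb, Slc11a1 and Hmox1. All 14 macrophage markers were detected and had higher means in splenectomized mice, 13 without overlap, where these shares over all detected genes were 55.1% and 21.7%. Their summed signal was 30710 and 31708 in splenectomized mice, against 19019 and 17557 in intact mice, and their log2 fold changes ran from 0.36 (Itgam) to 1.39 (Aif1) with a median of 0.92. Slc11a1 and Hmox1 lay inside this range, and Blvrb, at 1.49, just above it. Each gene was therefore also set against the mean centred log2 signal of these markers on the same array. Relative to it, Blvrb was 0.29 and 0.32 in splenectomized and -0.30 and -0.30 in intact mice, a difference of 0.60. Slc11a1 was 0.34 and 0.13 against -0.13 and -0.34, also without overlap. Hmox1 was 0.36 and -0.02 against -0.01 and -0.34, so its groups overlapped by a small margin. These are differences from the mean of the list, and since the 8 genes were chosen on the same comparison they carry no test.

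Measured the same way, Slc40a1 and Hp overlapped, while Blvra, Fth1 and probe set 1452661_at of Tfrc were lower than the markers without overlap. Fth1 was at -0.43 and -0.40 in splenectomized and 0.55 and 0.28 in intact mice. Whether macrophages are the source of any of these signals was not tested. The erythroid markers could not serve as such a list, as 2 of 13 were detected and Slc4a1, Epb42 and Klf1 were Absent on all arrays.

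**Figure D3:**
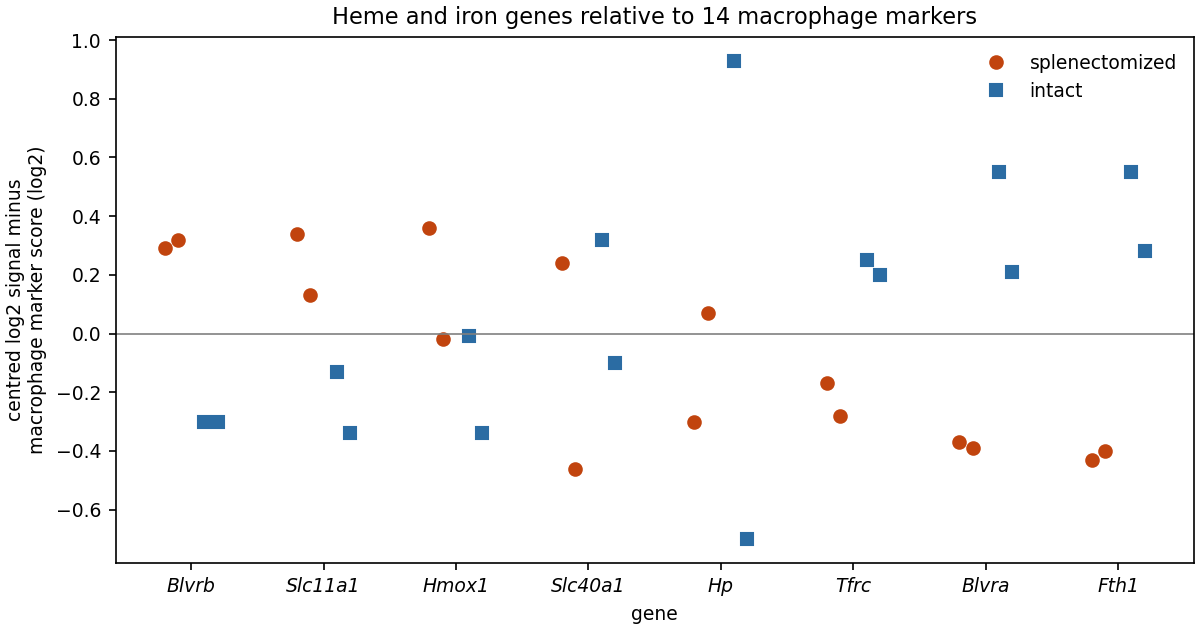
Centred log2 signal of each gene minus the mean centred log2 signal of 14 macrophage markers on the same array. Circles are splenectomized and squares intact arrays. Relative to the mean of the markers, Blvrb and Slc11a1 have higher splenectomized values (differences 0.60 and 0.47), Hmox1 overlaps, and Blvra and Fth1 are lower; single markers such as Aif1 differ as much as Slc11a1.

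The other genes of the pathway were taken as 5 lists with 62 genes, none of them among the 8, of which 52 were detected. In limma over all 26285 detected probe sets, 0 of the 52 passed an adjusted p of 0.05 in either direction, where 0.0% of all probe sets did (smallest adjusted p = 0.134). At an unadjusted p under 0.05 there were 9 of 52, against 9.48% of all detected genes. The 9 include Hpx, which was detected only through the splenectomized arrays. Without intact replicate 1 the log2 fold changes were 1.09 for Lrp1, 1.34 for Maff and 1.16 for Slc7a11. Without intact replicate 2 they were 1.33 for Lrp1 and 0.98 for Slc7a11. That of Hpx was then 3.79, against a single Absent signal of 1.3, so nothing is read from it. Those fits keep a single intact array and take their spread from the splenectomized pair alone.

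Among the 5 lists, genes of the response to heme and oxidants had the largest share higher without overlap. Of 11 detected genes of 12, 10 had higher signals in splenectomized mice with no overlap between groups, where the share over all detected genes was 21.7%, and 0 passed the adjusted threshold. The number without overlap was 7 when arrays were scaled to a common median. Some margins were small: the lower splenectomized array was 1.02 times the higher intact one for Gclc and Txnrd1, and 1.03 times for Nfe2l2. Mafg was higher on its brighter probe set (log2 0.25) and lower on its dimmer one (log2 -0.17). The list's median log2 fold change was 0.36, against 0.05 over all detected genes. Nqo1, a quinone reductase, had 101.6 and 112.2 in splenectomized mice, against 42.1 and 53.8 in intact mice (log2 1.17, adjusted p = 0.308). Slc7a11, the cystine transporter that feeds glutathione synthesis, had 250.1 and 242.4 against 124.8 and 110.4 (log2 1.07, adjusted p = 0.209). Maff, a small Maf partner of NRF2 and BACH1, had 108.1 and 113.4 against 65.0 and 43.6 (log2 1.06, adjusted p = 0.442). In each of these, both splenectomized arrays were well above both intact arrays.

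Regulators of these genes were also measured. Nfe2l2, which encodes NRF2, the activator of Hmox1 and Nqo1, had 838.8 and 809.9 in splenectomized mice, against 788.8 and 733.0 in intact mice (log2 0.12, adjusted p = 0.81). Bach1, the heme-sensing repressor of Hmox1, had 613.9 and 573.9 against 425.2 and 503.8 (log2 0.36, adjusted p = 0.641). Spic, the factor that drives red pulp macrophages of the spleen, was Absent on all splenectomized arrays on both of its probe sets and Present on a single intact array on 1 of them. Its signals did not exceed 18.3.

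Among genes that capture and carry heme, 5 of 11 detected genes were higher without overlap and 1, Cd163, was lower, where 21.7% and 19.7% of all detected genes were. The higher count holds Hpx and Slc46a1, which passed the detection filter only through the splenectomized arrays, where they are higher. Nothing is read from it for these genes. Lrp1, the receptor for heme bound to hemopexin, had 351.5 and 341.3 in splenectomized mice, against 138.0 and 162.6 in intact mice (log2 1.21, adjusted p = 0.176). Its ligand gene Hpx was Present on both splenectomized arrays at 19.3 and 16.8 and Absent on both intact arrays at 1.3 and 8.6. Slc46a1, a folate transporter first described as a heme carrier, was called the same way, at 25.8 and 18.8 against 12.1 and 13.3. Cd163, the macrophage receptor that takes up haptoglobin bound to hemoglobin, had 88.3 and 92.1 in splenectomized mice, against 107.0 and 173.6 in intact mice (log2 -0.60, adjusted p = 0.659). The receptor for the haptoglobin complex was thus on the lower side while the macrophage markers were on the higher side. The median of the list was 0.17, and 0.08 under median scaling, 0.27 without splenectomized replicate 1, 0.27 without intact replicate 1 and 0.26 without intact replicate 2.

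Iron uptake and storage genes, 16 detected of 18, had a median log2 fold change of -0.03, with 2 higher and 3 lower without overlap. Of all detected genes, 21.7% and 19.7% were. Lcn2, a neutrophil and epithelial protein that binds bacterial siderophores, had 4473.2 and 4292.3 in splenectomized mice, against 2040.8 and 3057.6 in intact mice (log2 0.81, adjusted p = 0.474). Slc39a14, which imports iron not bound to transferrin, had 201.8 and 195.1 against 185.3 and 140.8. On the lower side, the related importer Slc39a8 had 98.7 and 92.0 against 103.7 and 154.0, and Ncoa4, which delivers ferritin to autophagy, had 721.7 and 621.9 against 732.5 and 769.4. Ltf, which encodes lactoferrin, an iron-binding protein of neutrophil granules, overlapped at 257.1 and 190.2 against 346.1 and 199.0. Ftl1 and Tf are not analysed here, because no probe set carried their symbol alone.

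Of the genes that control iron export, 7 of 11 were detected, 3 higher and 1 lower without overlap (21.7% and 19.7% of all detected genes). The median of 0.32 was -0.02 when intact replicate 1 was left out, and 0.64 when splenectomized replicate 2 was. Fbxl5, the iron-sensing ligase that degrades IRP2, had 1146.6 and 959.4 in splenectomized mice, against 469.2 and 743.3 in intact mice (log2 0.83, adjusted p = 0.52). Its substrate gene Ireb2 had 379.8 and 393.5 against 394.0 and 460.8 (log2 -0.14, adjusted p = 0.805). Hfe, a partner of the transferrin receptor, had 208.3 and 197.5 against 147.2 and 185.4. Hamp, which encodes hepcidin, the hormone that removes ferroportin from the membrane, was near background at 12.4 and 9.5 against 8.2 and 5.0. It was Present on 1 array of each group and is among the 3 genes counted as higher without overlap.

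Heme synthesis genes were close to the middle of all genes, with 7 detected of 9, a median of -0.05, 1 higher and 2 lower without overlap (21.7% and 19.7% of all detected genes). The median was 0.09 without intact replicate 1 and -0.19 without intact replicate 2. Alas1, the first enzyme outside the erythroid lineage, had 587.3 and 605.0 in splenectomized mice, against 499.4 and 499.6 in intact mice (log2 0.26, adjusted p = 0.684). Uros, a later enzyme, had 207.7 and 219.1 against 276.7 and 243.3 (log2 -0.28, adjusted p = 0.701). Alad was lower on its brighter probe set (log2 -0.16) and higher on its dimmer one (log2 0.16). The erythroid enzyme Alas2 was Absent on all 4 arrays.

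**Figure D4:**
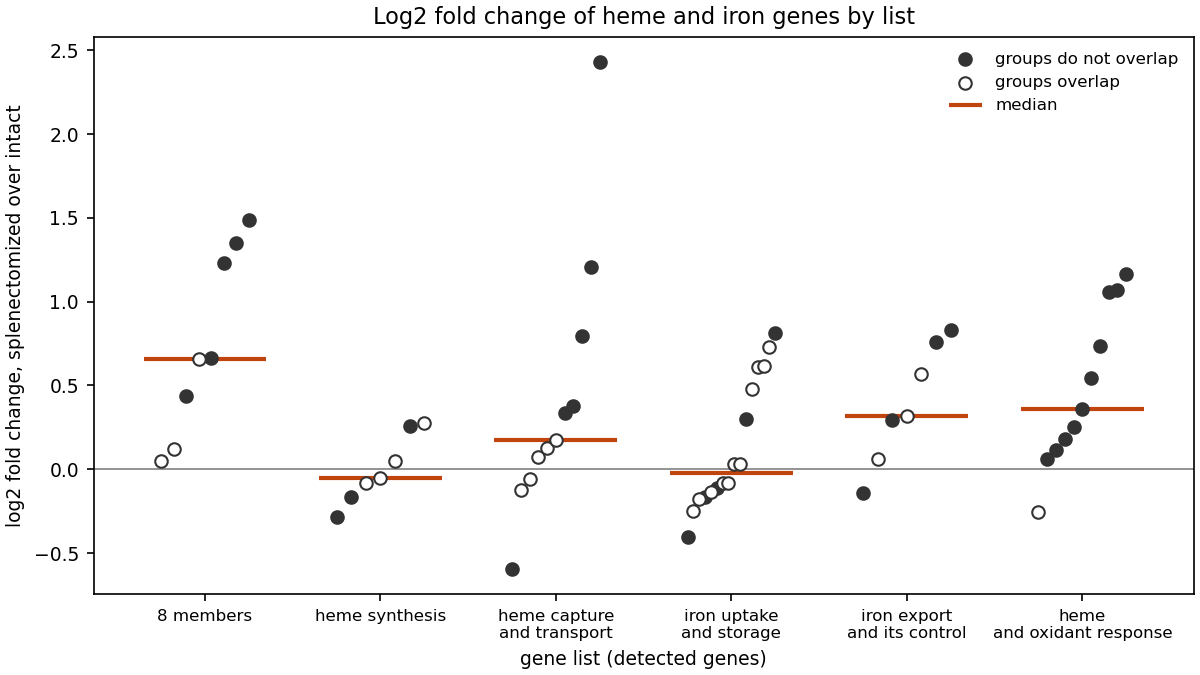
Log2 fold change (splenectomized over intact) of each detected gene in 6 lists, with the median as a bar. Filled points have groups that do not overlap and open points groups that do. The 8 chosen genes have a median of 0.66, the heme and oxidant response list 0.36, and heme synthesis and iron uptake lie near 0.

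The genes whose centred log2 profile over the 4 arrays lay nearest to that of Blvrb, among 13147 other detected genes, were Fasl, AW112010, Gm9706, Ankrd66 and Slamf7, at Euclidean distances of 0.147 to 0.193. Fasl, the death ligand of cytotoxic lymphocytes, had 48.2 and 51.5 in splenectomized mice, against 17.1 and 19.9 in intact mice. Slamf7, a receptor of natural killer and other activated immune cells, had 127.4 and 119.5 against 49.9 and 45.5. The nearest to Tfrc probe set 1452661_at were Adam15, Mxd1, Ccdc102a, Trim30d and Gadd45b, at 0.0246 to 0.0490. With 4 arrays, many genes can share such a profile, so these are descriptions.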

How the data were processed

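Total RNA of 4 tumour-bearing eyes, 2 from splenectomized and 2 from intact mice, was hybridised to Affymetrix mouse arrays. The deposited values are linear signal intensities made with GCOS 1.4 and MAS5, per the submitters' processing notes. The authors' detection calls hold other information, a letter (Present or Absent) per array, per the file header. No source used here states the target of the scaling. Each array had a mean of 150.0 after trimming 2% at each end. Signals were used as log2 values, with those under 0.1 raised to 0.1. Genes were named from the platform annotation: 34945 probe sets had 1 symbol, 932 several and 9160 none. Of those with 1 symbol, 34741 matched RefSeq by Entrez identifier and 0 changed.

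A probe set counted as detected when Present on at least 2 of 4 arrays (26285), and 64 control probe sets were left out of the fit. The comparison was fitted in limma 3.58.1 under R 4.3.3 (lmFit, eBayes with an intensity trend, 2 residual degrees of freedom) with Benjamini-Hochberg adjustment over all detected probe sets, and tested on simulated data. P-values are two-sided and set the group difference against the moderated spread between samples of the same group. The labels do not number these samples as animals. The number of arrays limits the precision. Same-numbered arrays were not paired (correlation of deviations -0.329).

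The 8 genes and all lists were chosen with earlier results of these data known. Pathway genes were named by size: up to 3 higher and 2 lower per list among those without overlap, plus fixed partners (Cd163, Hpx, Ftl1, Hamp, Nfe2l2, Bach1 and Spic). Ltf, Alas2, Keap1, Gclc, Txnrd1, Mafg and single markers such as Ttr, Fabp4 and Aif1 were named after their values were seen. Alternatives were other scalings, floors, filters, variance models, a replicate block, probe set choices and leaving out each array. Plots used Python 3.11.15 and matplotlib 3.10.9.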

Additional observations from a re-analysis of the deposited data

How the results depend on the processing

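The count of detected probe sets past the adjusted threshold was 0, and 1 after quantile normalization. The median log2 fold change of the 8 genes was 0.66. Leaving out a replicate gave 0 to 3574 probe sets, 0 to 9 pathway genes and a median of 0.45 to 1.11. Without intact replicate 1 the count was 329 and the median 1.11, and without intact replicate 2 they were 3574 and 0.45. The replicate block gave 0 probe sets and 0 pathway genes, and crossed numbers, added after the data were seen, gave 358 and 4. The counts of 0 came with 2120 probe sets at an unadjusted p under 0.05 in limma. Leaving out a replicate gave log2 fold changes of -0.03 to 0.27 for Blvra, -0.15 to 1.46 for Hp and -0.07 to 0.17 for Fth1 1448771_a_at, lowest without intact replicate 2 and highest without intact replicate 1. The last was -0.04 under median scaling. Tfrc 1422967_a_at ran from -0.31 without splenectomized replicate 2 to 0.25 without splenectomized replicate 1, against -0.03 on all arrays. The causes were not tested. Of the 8 genes, 8 had higher means on all arrays, 7 under median scaling (Fth1 lower) and 5 without intact replicate 2. In the heme and oxidant response list, Keap1 had a lower mean over all arrays on its brighter probe set, with overlapping groups. Its dimmer probe set was higher (log2 0.10). Under median scaling Gclc was lower as well. Probe sets with low signals, such as the dimmer ones of Tfrc and those of Hpx, Hamp and Spic, limit what can be compared.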
